A study of Mus musculus with 11 samples.

Results

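Mouse embryonic stem (ES) cells without any of the active DNA methyltransferases Dnmt1, Dnmt3a and Dnmt3b (TKO) were compared with their wild-type (WT) parent line J1 by polyA RNA-seq, with 1 library in each group. The deposited expression values were RPKM, the reads of a gene scaled by its transcript length and by the depth of the library, for 24016 genes. A gene entered the comparison when it stood at 1 RPKM or more in TKO, in WT or in both, which held for 13106 genes: 944 entered through TKO alone, 344 through WT alone and 11818 reached the minimum in both. Differences are TKO minus WT in log2(RPKM + 0.5), a scale that understates the change of low genes.

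The series held 11 libraries of J1 ES cells of strain 129S4/SvJae, kept with LIF and serum on a feeder layer of irradiated mouse embryonic fibroblasts. Besides TKO and WT, this comparison used the replicate libraries of TKO+Dnmt3a1 (2 libraries) and TKO+Dnmt3a2 (2 libraries), in which the long or the short isoform of Dnmt3a had been returned to the triple knockout. The 5 remaining libraries were TKO+Dnmt3b1, and DKO, which lacks Dnmt3a and Dnmt3b, alone or with Dnmt3a1, Dnmt3a2 or Dnmt3b1. They entered a model whose spread came from the replicate libraries alone, and alternative scalings and filters. Nothing in the labels says whether replicate libraries came from separate cultures, whether a line is 1 clone, or which promoter drives a returned enzyme. Genotype and line can therefore not be told apart, and TKO and WT have no replicate of their own.

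Dnmt1 keeps up cytosine methylation at CpG dinucleotides when DNA is copied, while Dnmt3a and Dnmt3b add it where neither strand carries it. Promoter methylation is known to hold germline genes silent and to mark the alleles of imprinted genes, and it helps to silence retroelements. ES cells tolerate its complete loss and go on dividing, which makes them a common system for reading what transcription does without it.

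Promoters differ widely in how many CpGs they offer for methylation, and 5 genes with low or absent transcripts in WT or in TKO are shown. They hold 1 to 17 CpGs, against a median of 22 for genes that entered and of 8 for all 27025 promoters. The sequences are from RefSeq on build GRCm38.p6, cover 250 bases before and 50 after the annotated start, and are written 5′ to 3′ on the gene's strand with each CpG in capitals. Asz1 (germ cell piRNA factor; chr6:18109012-18109311, minus strand) holds 17 CpGs, and 31.9% of all promoters in that set hold as many or more. Xlr5a (X-linked germline gene, named after its values were seen; chrX:73117653-73117952, minus strand) holds 16, a number reached by 33.5% of promoters. Xlr3c (chrX:73265341-73265640, minus strand) holds 7, reached by 52.3%. Pramel7, a member of the Prame family of germline and early embryo genes, at chr2:87492369-87492668 on the minus strand, holds 1, reached by 94.2%. Zscan4c, a gene of the two-cell embryo, at chr7:11005495-11005794 on the plus strand, holds 4, reached by 68.1%.
Asz1: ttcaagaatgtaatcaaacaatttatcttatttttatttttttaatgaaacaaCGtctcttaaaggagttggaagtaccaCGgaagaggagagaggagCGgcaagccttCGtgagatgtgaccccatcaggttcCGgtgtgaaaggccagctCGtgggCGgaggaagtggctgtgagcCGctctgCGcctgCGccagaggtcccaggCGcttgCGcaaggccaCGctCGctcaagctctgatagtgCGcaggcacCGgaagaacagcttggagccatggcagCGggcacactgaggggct
Xlr5a: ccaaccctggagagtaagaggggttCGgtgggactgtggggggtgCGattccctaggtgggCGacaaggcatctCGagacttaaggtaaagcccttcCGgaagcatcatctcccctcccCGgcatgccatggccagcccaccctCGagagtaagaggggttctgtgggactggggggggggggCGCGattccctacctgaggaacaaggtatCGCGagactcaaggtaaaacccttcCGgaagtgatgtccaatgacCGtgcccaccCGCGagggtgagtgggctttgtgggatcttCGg
Xlr3c: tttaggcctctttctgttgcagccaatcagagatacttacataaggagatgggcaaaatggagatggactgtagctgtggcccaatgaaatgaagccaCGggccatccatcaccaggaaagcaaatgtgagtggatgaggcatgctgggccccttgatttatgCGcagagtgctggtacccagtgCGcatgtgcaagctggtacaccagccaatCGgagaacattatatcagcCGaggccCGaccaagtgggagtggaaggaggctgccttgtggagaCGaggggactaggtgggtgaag
Pramel7: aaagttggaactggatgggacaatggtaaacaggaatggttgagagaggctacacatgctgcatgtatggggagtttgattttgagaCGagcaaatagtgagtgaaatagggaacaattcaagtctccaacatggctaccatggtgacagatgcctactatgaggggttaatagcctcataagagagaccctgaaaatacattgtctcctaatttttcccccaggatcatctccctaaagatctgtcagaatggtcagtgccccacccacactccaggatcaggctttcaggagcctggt
Zscan4c: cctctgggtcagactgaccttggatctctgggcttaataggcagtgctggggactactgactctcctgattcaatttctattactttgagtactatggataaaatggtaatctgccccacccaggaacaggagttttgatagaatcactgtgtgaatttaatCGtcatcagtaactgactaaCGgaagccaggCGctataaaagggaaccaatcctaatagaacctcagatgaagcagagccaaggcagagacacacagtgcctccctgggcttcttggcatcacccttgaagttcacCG
Transcripts of the first 4 genes were higher in TKO and that of Zscan4c was lower. Asz1 read 2.95 RPKM in TKO and 0.088 RPKM in WT, Xlr5a read 3.15 RPKM in TKO and was listed at 0 in WT, Xlr3c read 9.87 and 0.019 RPKM, Pramel7 4.77 and 0.049 RPKM, and Zscan4c 0.167 RPKM in TKO and 3.89 RPKM in WT.

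Depth, estimated from the spacing of low RPKM values, was 25.92 M reads in TKO, 32.42 M in WT and between 21.7 and 32.78 M over the series, so that 1 read in a transcript of 2 kb was worth 0.0193 RPKM in TKO and 0.0154 RPKM in WT. Of the targeted genes, Dnmt1 stood at 6.73 RPKM in TKO and 71.0 RPKM in WT (difference −3.31 ± 0.24, SE) and Dnmt3a at 4.24 RPKM in TKO and 22.7 RPKM in WT (−2.29 ± 0.44). Dnmt3b read 45.3 RPKM in TKO and 25.03 RPKM in WT, and a total transcript level of this kind is no check of a deleted exon. All 8 ES cell markers were at 1 RPKM or more in both libraries. Of 30 markers of the feeder fibroblasts, 29 were at 1 RPKM or more in TKO and 28 in WT, none was at 0, and their sum was 832.8 RPKM in TKO and 663.8 RPKM in WT. Of 18 macrophage markers, 7 in TKO and 4 in WT were at 1 RPKM or more, none was at 0, and their sum was 59.1 RPKM in TKO and 46.3 RPKM in WT. In these bulk samples more cells of a type and more RNA per cell cannot be told apart.

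The 2 lines differed more than replicate libraries of 1 line did. A difference of 1 or more in either direction was found for 1528 genes (11.7%) between TKO and WT, against 269 (2.05%) between the TKO+Dnmt3a1 libraries and 450 (3.43%) between the TKO+Dnmt3a2 libraries. The SD across genes was 0.67 for TKO minus WT, 0.36 for the first pair and 0.44 for the second (replicate 2 minus 1). Of all 13106 genes 7812 were higher in TKO, 5292 lower and 2 equal, and the list counts below stand against that background. As a yardstick, with no test, a gene is called past the replicate spread when its TKO minus WT difference is at least 1 in size and larger than the difference between the replicates of both pairs. This held for 1441 of the 13106 genes (11%), 1080 higher (8.24%) and 361 lower (2.75%) in TKO. The excess of higher genes depends on the scaling: the median of all genes stood 0.12 higher in TKO, at −0.01 after quantile normalization and at −0.04 after median ratio scaling. The split was then 712 higher and 553 lower with quantile normalization, and 801 and 522 with median ratio scaling.

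**Figure D1:**
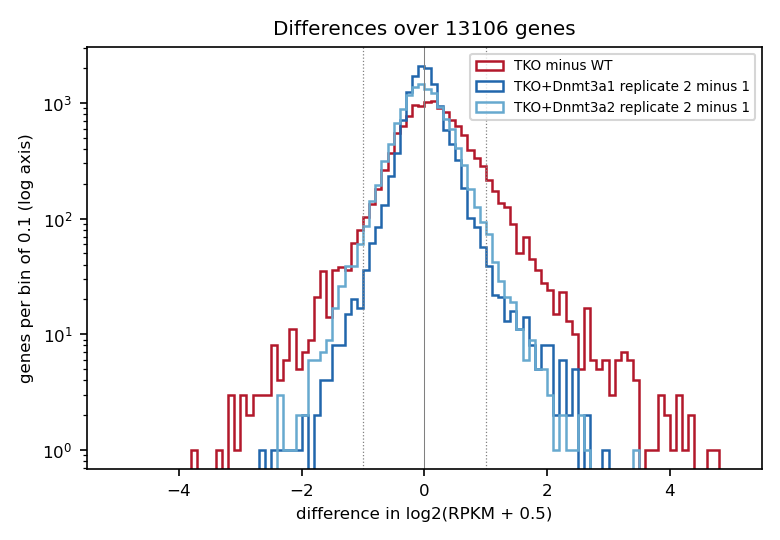
Number of genes (log axis, bins of 0.1) by difference in log2(RPKM + 0.5) for TKO minus WT and for replicate 2 minus 1 of both replicated lines, over 13106 genes. The dotted lines mark differences of 1 in size, which 11.7% of genes passed between TKO and WT, and 2.05% and 3.43% between the replicates of TKO+Dnmt3a1 and TKO+Dnmt3a2.

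As a test, limma was fitted to all 11 libraries with 9 group means, and 93 genes (0.71%) had a Benjamini-Hochberg adjusted p under 0.05: 72 rose (0.549%) and 21 fell (0.16%) in TKO, with 2440 genes at an unadjusted p under 0.05. "Rose" and "fell" are used below for these genes alone. All 93 were past the replicate spread, which is no independent support, as both measures rest on the same 4 replicate libraries. As only 0.71% of all genes were called, a list with 0 called members does not stand apart from all genes. Because the spread came from the 4 replicate libraries only, limma called 25 genes when either TKO+Dnmt3a2 library was left out, and 162 and 161 without TKO+Dnmt3a1 replicate 1 or 2. In all of these 4 fits 24 of the 93 genes were called, 18 higher and 6 lower. Among them were Ndufs5, Ube2l6, Tmem40, Tesc, Dppa3, H19, Rhox6, Srgn, Mt2, Calcoco2 and Grb10, which rose, and Dnmt1, Otx2, Alg13, Ndrg2 and Cobl, which fell. Leaving out either library of a replicated line removes the spread of that line, so that the 4 fits are in effect 2, each resting on 1 pair. The genes described below as rising or falling that are not among the 24 were not called without TKO+Dnmt3a2 replicate 1 or 2. With the filter set at 1 RPKM in any of the 11 libraries limma called 49 genes, all among the 93, and Xlr3a, Xlr3c, Usp26, Rhox9, Cited1, Cubn, Foxq1, Sparc, Dnmt3l, Slc7a5, Zfp42, Galnt6, Tnnt3, Pramel7, Vpreb1, Calcoco2, Ndrg2 and Klk1b22 were not among them. With quantile normalization 66 were called, without Usp26, Rhox9, Cubn, Foxq1, Sparc, Slc7a5, Galnt6, Tnnt3, Vpreb1, Calcoco2 and Ndrg2. With median ratio scaling 78 were called, without Cubn, Sparc, Dnmt3l, Slc7a5, Vpreb1 and Ndrg2.

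Genes of primitive and visceral endoderm, the extraembryonic lineage that lines the blastocyst cavity, were higher in TKO as a group. Of 43 listed genes 35 entered, 30 of them higher and 5 lower (median difference 1.45, against 0.12 for all genes), 24 were past the replicate spread and 7 rose by limma. Counted over all 43 genes with no filter the median was 1.15, and 14 of the 23 members at 1 RPKM or more in both libraries were past the spread. The same list had a median of 0.14 between the TKO+Dnmt3a1 replicates and 0.00 between the TKO+Dnmt3a2 replicates.

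Among the lineage regulators, Cited1, a transcriptional coactivator, rose to 10.7 RPKM in TKO, against 0.553 RPKM in WT (3.41 ± 0.41, SE; limma adjusted p = 0.0283). The 4 replicate libraries of the returned Dnmt3a isoforms lay between 2.30 and 3.98 RPKM. The forkhead factor Foxq1 also rose (5 RPKM in TKO and 0.401 RPKM in WT). Gata4, Gata6 and Sox17, the factors that set up primitive endoderm (named after their values were seen), were higher without passing the test, at 6.39, 7.30 and 2.19 RPKM in TKO and 2.79, 1.84 and 0.148 RPKM in WT.

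Among products of these cells, Dab2, an endocytic adaptor, rose to 12.2 RPKM in TKO, against 1.33 RPKM in WT (2.79 ± 0.29), with 4.35 to 5.43 RPKM in the replicate libraries. Cubn, the endocytic receptor cubilin, rose to 7.61 RPKM in TKO, against 0.270 RPKM in WT (3.40 ± 0.47; limma adjusted p = 0.0430). Srgn, the proteoglycan core protein serglycin, rose (16.03 RPKM in TKO and 1.95 RPKM in WT), as did the laminin chain Lama1 (22.3 and 4.20 RPKM) and the matrix protein Sparc (226 and 68.6 RPKM). For Dab2, Cubn and Lama1 every replicate library stood between WT and TKO. Secreted products of mature visceral endoderm such as Afp and Ttr, named after their values were seen, did not enter: Afp read 0.018 RPKM in TKO and was listed at 0 in WT, and Ttr read 0.188 RPKM in TKO and 0.025 RPKM in WT. Sparc and the laminins are also made by fibroblasts. Of the called members, Srgn, Dab2, Cubn and Sparc read more in TKO+Dnmt3b1 than in TKO (21.5, 16.5, 7.72 and 357 RPKM). Cited1, Foxq1 and Lama1 read less there than in TKO. That library had the highest fibroblast and macrophage marker sums of the series, at 3814 and 323.6 RPKM. The part of fibroblasts and macrophages in the endoderm list was not tested. The sum of 8 primitive endoderm markers was 104.5 RPKM in TKO, 44.3 to 54.5 RPKM in the 4 replicate libraries and 23.4 RPKM in WT.

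Other lineage lists had smaller medians. Of 17 trophoblast genes that entered 16 were higher (median 0.70) and 6 were past the replicate spread, with 0 called by limma, against 0.71% of all genes. Over all 38 listed genes the median was 0.33, with 28 higher, 4 lower and 6 equal. Tfap2c, a trophoblast and germ cell factor, read 42.7 RPKM in TKO and 14.5 RPKM in WT, and its partner Gata3 read 3.17 RPKM in TKO and 0.530 RPKM in WT. Hand1, expressed in trophoblast and mesoderm, read 7.76 RPKM in TKO and 0.833 RPKM in WT, but up to 14.3 RPKM in the replicate libraries. For the 14 mesoderm and primitive streak genes that entered the median was 0.37 (9 higher, 5 lower), 0.07 with quantile normalization and 0.17 over all 30 listed. In that list Tbx1 read 3.58 RPKM in TKO and 0.308 RPKM in WT, while the caudal factor Cdx1 read 0.936 RPKM in TKO, 3.97 to 7.71 RPKM in the replicate libraries and 5.72 RPKM in WT. Of 10 neural ectoderm genes that entered 8 were higher (median 0.60, 0.41 with quantile normalization, 0.21 over all 25 listed, and −0.58 between the TKO+Dnmt3a2 replicates), among them Pax6 (3.02 RPKM in TKO and 1.05 RPKM in WT). Only 14 of 39 Hox genes entered, 10 higher and 4 lower with a median of 0.33, which was 0.03 with quantile normalization and smaller than the −0.40 between the TKO+Dnmt3a2 replicates. The 6 at 1 RPKM or more in both libraries had a median of 0.03. In each direction 1 was past the spread, Hoxd9 (1.504 RPKM in TKO, 0.347 RPKM in WT) and Hoxb13 (0.203 RPKM in TKO, 1.32 RPKM in WT). Keratin and cornified envelope genes were higher for 16 of the 19 that entered (median 0.70, 0.53 with chromosome medians removed, and 0.40 over all 38 listed). The epithelial membrane protein gene Tmem40 was called (22.5 RPKM in TKO, 1.57 RPKM in WT, 3.47 ± 0.28).

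**Figure D2:**
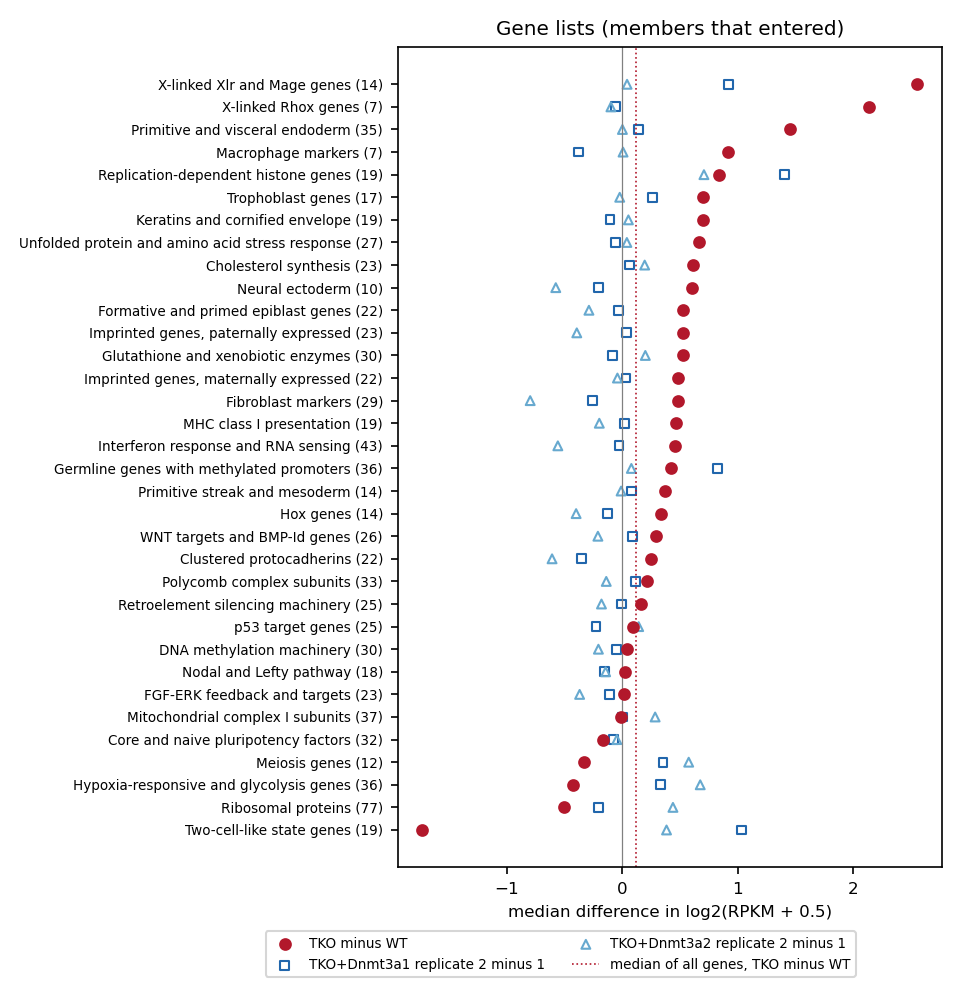
Median difference in log2(RPKM + 0.5) of 34 gene lists, over the members that entered (number in brackets), for TKO minus WT (filled) and for replicate 2 minus 1 of both replicated lines (open). The X-linked, endoderm and two-cell lists lie farther from 0 than either replicate pair, and the histone and germline lists lie inside a replicate difference.

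The X-linked germline clusters were higher in TKO. All 14 Xlr, Mage and Pnma genes that entered were higher in TKO (median 2.56), 13 of them past the replicate spread, and so were all 7 Rhox homeobox genes that entered (median 2.14, 5 past the spread). As 12 of these 14 and 4 of these 7 entered through TKO alone, the fuller count is over every listed gene: of 24 Xlr, Mage and Pnma genes measured, 21 were higher and 3 equal (median 1.67), and of 30 Rhox genes 22 were higher and 8 equal (median 0.39). No member of either list was lower in TKO.

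Xlr3a rose to 25.7 RPKM in TKO, against 0.872 RPKM in WT (4.25 ± 0.49, SE; limma adjusted p = 0.0265), and the replicate libraries ran from 12.6 to 24.8 RPKM. Xlr3c rose by 4.32 ± 0.52 to the level given with its promoter. Pnma5, a paraneoplastic antigen gene, rose to 36.7 RPKM in TKO, against 2.27 RPKM in WT, with 17.1 to 29.8 RPKM in the replicate libraries. Xlr4a read 5.82 RPKM in TKO and 0.103 RPKM in WT without passing the test. The Xlr genes are close copies that share reads, and single values among them are uncertain.

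Rhox1, Rhox6 and Rhox9 rose, at 12.3, 17.0 and 12.8 RPKM in TKO and 0.902, 1.73 and 1.66 RPKM in WT. Rhox6 and Rhox9, which are expressed in placenta and germ cells, stood at 32.4 and 30.3 RPKM and at 22 and 17.8 RPKM in the TKO+Dnmt3a2 libraries, above TKO itself, and at 6.62 and 6.35 RPKM and 5.49 and 3.93 RPKM in the TKO+Dnmt3a1 libraries. Rhox2a read 2.05 RPKM in TKO and 0.078 RPKM in WT, without passing the test. Outside these lists the X-linked ubiquitin protease gene Usp26, known from testis, rose to 28.4 RPKM in TKO, against 1.10 RPKM in WT (4.18 ± 0.51). It was named after its values were seen.

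Germline genes with methylated promoters went both ways. Of 36 that entered, 23 were higher and 13 lower (median 0.42, 0.21 with quantile normalization), against 7812 higher of all 13106 genes. Past the replicate spread were 12 higher and 2 lower members, and limma, which called 0.71% of all genes, called 0 in the list. The median of the list between the TKO+Dnmt3a1 replicates was larger, at 0.83. Cyct, the testis cytochrome c, read 62.7 RPKM in TKO and 6.004 RPKM in WT, with 52.1 to 98.5 RPKM in the replicate libraries, all above WT. Tex19.2, a placental and germ cell gene that restrains retroelements, read 6.47 RPKM in TKO and 0.639 RPKM in WT. Tktl2, a transketolase-like gene, read 3.15 and 0.209 RPKM. Lower in TKO were Mael and Mov10l1 (named after their values were seen), both piRNA pathway genes, at 3.17 and 3.16 RPKM in TKO and 11.9 and 9.64 RPKM in WT.

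Meiosis genes leaned the other way. Of 12 that entered, 9 were lower and 3 higher (median −0.34), and the 3 past the replicate spread were all lower. The medians between replicates were larger, at 0.35 (TKO+Dnmt3a1) and 0.58 (TKO+Dnmt3a2). Sycp3, of the synaptonemal complex, read 3.52 RPKM in TKO, 3.98 to 9.52 RPKM in the replicate libraries and 16.7 RPKM in WT. The meiotic cohesin subunit Stag3 read 17.1 RPKM in TKO and 41.2 RPKM in WT, and Meiob, of meiotic recombination, 0.968 RPKM in TKO and 3.45 RPKM in WT. None of the 3 passed limma's test.

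A pair of motifs was counted on both strands of the 300-base promoters: TCCCGC, found in E2F6 sites, and CACGTG, the E-box, whose letters cannot coincide in full with those of the first. CACGTG was found in 10 of the 30 germline promoters in the table (33.3%) and 4 of 11 meiosis promoters (36.4%), against 11.9% of the promoters of genes that entered and 8.09% of all 27025 promoters. In the other lists the share of CACGTG ran from 0% to 31.6% (6 of 19 p53 target promoters), with 27.3% for trophoblast genes (3 of 11). A share near 33.3% is thus not particular to the germline and meiosis lists. TCCCGC was in 43.3% of the germline promoters, against 40.6% of those of genes that entered and 22% of all. Neither was found in the 14 Xlr, Mage and Pnma promoters, the 5 Rhox promoters or the 9 two-cell promoters with an entry, nor in any of the 5 sequences printed above. Both motifs hold a CpG, and the median CpG counts of these 3 lists were 7, 8 and 3, against 22 for genes that entered. With so few promoters and CpGs, the absence does not set these lists apart.

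Genes of the two-cell-like state, a rare condition of ES cell cultures that transcribes genes of the newly activated embryo, were lower in TKO. Of 19 that entered 17 were lower and 2 higher (median −1.73). Past the replicate spread were 13 lower members, with 0 called by limma, against 0.71% of all genes. As 13 entered through WT alone, the count over all 34 measured genes is 27 lower, 3 higher and 4 equal (median −0.95), and 0 of the 5 members at 1 RPKM or more in both libraries were past the spread. The list also varied between replicates, with medians of 1.04 (TKO+Dnmt3a1) and 0.38 (TKO+Dnmt3a2).

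Zscan4a, of a cluster tied to telomere maintenance, read 0.354 RPKM in TKO, 0.587, 1.77, 0.653 and 1.04 RPKM in the replicate libraries and 6.09 RPKM in WT. Zscan4d read 0.478 RPKM in TKO and 5.94 RPKM in WT, with 3.86 RPKM in TKO+Dnmt3a1 replicate 2. Gm2022 read 0.230 RPKM in TKO and 3.96 RPKM in WT. WT stood above TKO and all 4 replicate libraries for these 3 genes. Zscan4 copies share reads.

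Core and naive pluripotency genes leaned slightly lower: 20 of 32 were lower and 12 higher, against 5292 lower of all 13106 genes. The median was −0.17 (−0.33 with median ratio scaling), against −0.07 and −0.05 between the TKO+Dnmt3a1 and TKO+Dnmt3a2 replicates. Past the replicate spread were 2 in each direction. Dppa3, of naive and germ cells, rose to 118 RPKM in TKO, against 11.7 RPKM in WT (3.29 ± 0.22; limma adjusted p = 0.0149), and lay between 37.2 and 45.3 RPKM in the replicate libraries. Zfp42, a zinc finger gene used as a marker of undifferentiated cells, fell to 47.3 RPKM in TKO, against 222 RPKM in WT (−2.22 ± 0.26), and was no higher than 49.1 RPKM in the replicate libraries. Dppa2, which opens early embryonic genes, read 54.6 RPKM in TKO and 23.4 RPKM in WT, and Tbx3 read 11.6 RPKM in TKO and 29.8 RPKM in WT. Of the central factors, named after their values were seen, Pou5f1 read 454 RPKM in TKO and 729 RPKM in WT, Sox2 259 and 260 RPKM, and Nanog 406 and 214 RPKM.

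Formative and primed epiblast genes were higher for 15 of 22 (median 0.53), against 7812 of all 13106 genes, but the 2 called members fell. Otx2, the homeobox factor of the primed state, fell to 0.585 RPKM in TKO, against 7.60 RPKM in WT (−2.90 ± 0.28). The 2 TKO+Dnmt3a1 libraries read 7.06 and 7.14 RPKM, near WT, and the 2 TKO+Dnmt3a2 libraries 0.950 and 0.954 RPKM, near TKO. The growth factor gene Fgf15 fell to 1.22 RPKM in TKO, against 8.66 RPKM in WT, with 3.30 and 3.36 RPKM in TKO+Dnmt3a1 and 1.83 and 1.803 RPKM in TKO+Dnmt3a2. Sox3 and Foxd3 were higher without passing the test, at 7.64 and 6.06 RPKM in TKO and 1.75 and 1.73 RPKM in WT. Alg13, of protein N-glycosylation and named after its values were seen, fell to 8.78 RPKM in TKO, against 66.0 RPKM in WT, and read 59.5 and 49.0 RPKM in TKO+Dnmt3a1, near WT, and 6.74 and 7.42 RPKM in TKO+Dnmt3a2, below TKO.

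Of the signalling lists, the Nodal and FGF-ERK genes had medians near 0. The 18 Nodal pathway genes split 9 higher and 9 lower (median 0.03, −0.12 with quantile normalization), with the ligand Gdf3 at 47.5 RPKM in TKO and 12.7 RPKM in WT. The 23 FGF-ERK genes had a median of 0.02 (−0.09 with quantile normalization), with the receptor Fgfr3 at 4.44 RPKM in TKO and 0.862 RPKM in WT, and the feedback inhibitor Spry4 at 13.6 RPKM in TKO and 35.6 RPKM in WT. Of 26 WNT target and BMP-Id genes 18 were higher (median 0.30, 0.09 with quantile normalization), against 7812 of all 13106 genes. Among the 18 were the WNT inhibitors Notum (7.10 RPKM in TKO, 2.48 RPKM in WT) and Dkk1 (1.11 and 0.041 RPKM) and the BMP target Id2 (14.0 and 4.84 RPKM). None of these 3 lists had a member that passed limma's test, which 0.71% of all genes passed.

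**Figure D3:**
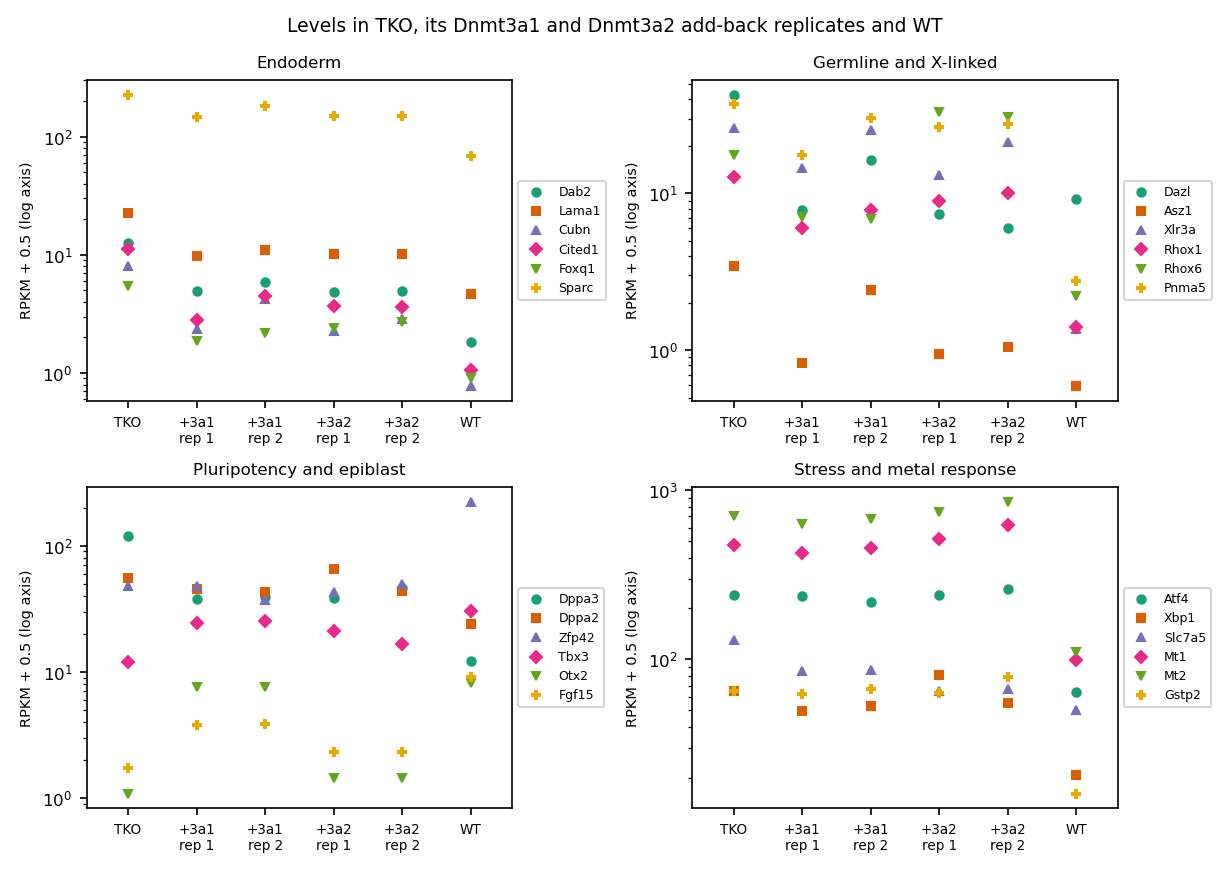
Levels (RPKM + 0.5, log axis) in TKO, the 2 TKO+Dnmt3a1 and 2 TKO+Dnmt3a2 libraries and WT for endoderm, germline and X-linked, pluripotency and epiblast, and stress and metal response genes. Otx2 in TKO+Dnmt3a1 lies near WT, while Atf4, Mt1 and Mt2 in all 4 replicate libraries lie near TKO.

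Imprinted genes, of which 1 parental allele is normally silent, were mostly higher in TKO, on both the maternally and the paternally expressed side. Of the maternally expressed genes 17 of 22 were higher (median 0.48, 0.32 with median ratio scaling), 6 past the replicate spread and 2 called. H19, a noncoding RNA, rose to 246 RPKM in TKO, against 29.8 RPKM in WT (3.03 ± 0.24; limma adjusted p = 0.0149), with 89.8 and 109 RPKM in TKO+Dnmt3a1 and 313 and 342 RPKM in TKO+Dnmt3a2. Grb10, a growth factor receptor adaptor, rose to 31.4 RPKM in TKO, against 6.38 RPKM in WT (2.21 ± 0.24). The noncoding RNAs Rian and Mirg of the Dlk1-Meg3 region on chromosome 12 read 64.8 and 5.82 RPKM in TKO and 27.1 and 2.14 RPKM in WT, and were no longer past the spread once chromosome medians were removed.

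Of the paternally expressed genes 18 of 23 were higher (median 0.52), 7 past the replicate spread and 0 called, against 0.71% of all genes called. The zinc finger gene Peg3 read 63.6 RPKM in TKO and 14.1 RPKM in WT, the retrotransposon-derived placental gene Peg10 165 and 49.5 RPKM, the cell cycle regulator Plagl1 4.54 and 1.06 RPKM, and Nap1l5 3.09 and 0.353 RPKM. In the replicate libraries Peg3 lay between 24.4 and 53.7 RPKM and Peg10 between 74.5 and 110 RPKM, all above WT and below TKO. One RPKM value per gene does not separate the alleles.

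Genes of the unfolded protein and amino acid stress response were higher for 25 of 27 (median 0.66), all of them at 1 RPKM or more in both libraries, and 9 were past the replicate spread. The median was 0.34 once chromosome medians were removed. Atf4, the central transcription factor of the amino acid response, rose to 238 RPKM in TKO, against 64.1 RPKM in WT (1.89 ± 0.22), and stood between 217 and 262 RPKM in the replicate libraries. The amino acid transporter gene Slc7a5 rose to 129 RPKM in TKO, against 49.4 RPKM in WT (1.38 ± 0.20), but was not called with any 1 of the 4 replicate libraries left out. Chac1, which degrades glutathione, read 11.8 RPKM in TKO and 2.87 RPKM in WT, the splicing-activated factor Xbp1 64.5 and 20.3 RPKM, and the mitochondrial folate enzyme Mthfd2 118 and 39.6 RPKM. The chaperone genes Hspa5 and Hsp90b1, named after their values were seen, read 195 and 267 RPKM in TKO and 202 and 356 RPKM in WT.

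The metallothioneins Mt1 and Mt2, which bind zinc and copper and were named after their values were seen, rose to 476 and 709 RPKM in TKO, against 98.5 and 110 RPKM in WT, with all replicate libraries at 424 RPKM or more. Of 30 glutathione and xenobiotic enzymes 21 were higher (median 0.52, 0.34 over all 35 listed), 8 past the replicate spread. Gstp2, a glutathione transferase, rose to 64.8 RPKM in TKO, against 15.6 RPKM in WT (2.02 ± 0.24). Gpx2, a glutathione peroxidase, read 11.6 and 1.14 RPKM, and the quinone reductase Nqo1 27.8 and 9.04 RPKM. Cholesterol synthesis genes were higher for 20 of 23 (median 0.61), with 3 past the spread: Fdps (136 RPKM in TKO, 60.3 RPKM in WT), Pmvk (54.9 and 24.9 RPKM) and Mvd (50.2 and 24.3 RPKM). These 3 were not past it after median ratio scaling or with chromosome medians removed.

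Hypoxia-responsive and glycolysis genes were lower for 27 of 36 (median −0.42). Their medians between replicates were 0.33 and 0.68, the second larger than that between the lines, and Bnip3l alone was past the spread (22.9 RPKM in TKO, 48.4 RPKM in WT). Mitochondrial complex I genes had a median of −0.01 (−0.18 with median ratio scaling), with 1 exception: Ndufs5 rose to 28.4 RPKM in TKO, against 0.903 RPKM in WT (4.36 ± 0.24; limma adjusted p = 0.0127, the lowest of all genes), and lay between 31.3 and 32.3 RPKM in the replicate libraries. The 25 p53 target genes had a median of 0.10 (−0.07 with median ratio scaling) and none was past the spread. Bax read 143 RPKM in TKO and 125 RPKM in WT.

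Interferon response and RNA sensing genes were higher for 35 of 43 (median 0.46), and MHC class I genes for 17 of 19 (median 0.46, 0.25 with quantile normalization, 0.29 over all 24 listed). The interferon list differed more between the TKO+Dnmt3a2 replicates (−0.56) than between the lines, the MHC list less (−0.20). Of 8 interferon genes past the spread, Ube2l6, a conjugating enzyme for ISG15, was the only one called (27.9 RPKM in TKO and 1.14 RPKM in WT, 4.11 ± 0.35). Irgm1, an interferon-induced GTPase, read 5.72 RPKM in TKO, 3.86 to 15.1 RPKM in the replicate libraries and 0.724 RPKM in WT. Parp14 read 3.27 RPKM in TKO and 0.890 RPKM in WT, and the antiviral gene Rsad2 1.27 and 0.273 RPKM. H2-K1, a classical MHC class I gene, read 76.7 RPKM in TKO and 27.7 RPKM in WT, H2-D1 48.1 and 21.8 RPKM, and the peptide trimming enzyme Erap1 1.56 and 0.319 RPKM. H2-D1 and H2-L are near-identical copies.

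Among the DNA methylation machinery 17 of 30 genes were higher and 13 lower, with a median of 0.04 (−0.07 with quantile normalization). Besides Dnmt1, the called gene was Dnmt3l, the inactive partner of the de novo enzymes, which rose to 391 RPKM in TKO, against 97.0 RPKM in WT (2.005 ± 0.26), with 275 to 416 RPKM in the replicate libraries. Gadd45a, tied to demethylation and stress, read 78.9 RPKM in TKO and 37.3 RPKM in WT.

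The 25 genes of retroelement silencing had a median of 0.17, which was −0.03 once chromosome medians were removed, and 1 was past the spread: Zfp809, a zinc finger protein that binds retroviral DNA, read 19.25 RPKM in TKO and 7.02 RPKM in WT. Polycomb subunits were higher for 25 of 33 (median 0.21, 0.04 with chromosome medians removed), and 4 were past the spread. Phf19, an accessory subunit of PRC2, read 9.61 RPKM in TKO and 2.61 RPKM in WT, and Bmi1, of PRC1, 5.67 and 2.44 RPKM.

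Replication-dependent histone genes were higher for 18 of the 19 that entered (median 0.84, and 0.40 over all 31 listed), but differed more between the TKO+Dnmt3a1 replicates (1.41). These transcripts mostly lack a polyA tail, and the libraries were made from polyA RNA. Hist1h4i rose to 32.3 RPKM in TKO, against 3.79 RPKM in WT (2.93 ± 0.33), with 15.4 to 22.8 RPKM in the replicate libraries. Ribosomal protein genes were lower for 70 of 77 (median −0.50, between −0.67 and −0.21 under the alternatives), with 0 past the spread. Rplp1 read 2294 RPKM in TKO and 3021 RPKM in WT, and the TKO+Dnmt3a2 replicates differed in the list by 0.44. All 22 protocadherin genes that entered were of the gamma cluster and were higher by 0.21 to 0.32 (median 0.25, 0.09 with median ratio scaling), inside both replicate differences. They share their last exons and hence reads.

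Feeder fibroblast markers were higher for 25 of 29 (median 0.48), with the TKO+Dnmt3a2 replicates differing by −0.80. Twist1 read 14.2 RPKM in TKO and 4.22 RPKM in WT, Tnc 20.8 and 9.20 RPKM, and the receptor Pdgfrb 2.21 RPKM in TKO and 5.58 RPKM in WT. Of 7 macrophage markers that entered 5 were higher and 2 lower (median 0.92, 0.27 over all 18), with 2 past the spread and higher and 1 lower. Lyz2, lysozyme, read 28.7 RPKM in TKO and 12.9 RPKM in WT, Cd14, a receptor for bacterial lipopolysaccharide, 2.73 and 0.549 RPKM, and the lysosomal membrane protein gene Laptm5 7.14 RPKM in TKO and 15.9 RPKM in WT. The part of these cells in the other lists was not tested.

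Ranked by size, the genes at places 11 to 25 among the higher ones without a predicted or clone name included several from no list. Galnt6, which starts O-linked sugar chains, rose to 19.8 RPKM in TKO, against 1.47 RPKM in WT. Tesc, a calcium-binding protein gene, rose to 19.7 RPKM in TKO, against 1.56 RPKM in WT (3.29 ± 0.33). Apoa2, an apolipoprotein, rose to 6.41 RPKM in TKO, against 0.295 RPKM in WT, and was higher still in the replicate libraries (9.13 to 14.0 RPKM). Tnnt3, of fast skeletal muscle, rose to 4.77 RPKM in TKO, against 0.031 RPKM in WT, Vpreb1, of the pre-B cell receptor, to 6.86 RPKM, against 0.318 RPKM in WT, and Pramel6 to 6.11 RPKM, against 0.138 RPKM in WT. Vpreb1 and Pramel6 lay at 0.431 to 2.15 RPKM and 0.575 to 1.30 RPKM in the replicate libraries, all below TKO and above WT. Nxf3 and Xlr3b were also among these 15, without passing the test.

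On the lower side, places 11 to 25 included Triml2, which fell to 17.7 RPKM in TKO, against 111 RPKM in WT (−2.61 ± 0.28), and lay between 10.2 and 13.8 RPKM in the replicate libraries. Ndrg2 fell to 6.55 RPKM in TKO, against 41.3 RPKM in WT, and the actin nucleator gene Cobl to 9.04 RPKM, against 51.2 RPKM in WT. Klk1b22, a kallikrein, fell to 0.048 RPKM in TKO, against 3.21 RPKM in WT. Ndufa4l2, a mitochondrial protein gene known to respond to hypoxia, read 10.9 RPKM in TKO and 66.4 RPKM in WT, but 8.97 and 35.9 RPKM in the 2 TKO+Dnmt3a2 libraries, and did not pass. Ccnb1ip1, of meiotic crossover, read 2.30 RPKM in TKO and 15.1 RPKM in WT. Padi2, Col13a1, Vax2os, Pou2f3 and Sult5a1 were also lower without passing.

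Grouped by symbol stem, 196 families of 8 or more genes could be formed, and 156 had a median above 0 and 40 below. The highest were Xlr (2.87), Tbx (0.99), Krt (0.97), Cxcl (0.91), Hist (0.90) and Lgals (0.77). By replicate pair the medians of Cxcl (−0.97 in TKO+Dnmt3a2) and Hist (1.32 in TKO+Dnmt3a1) were larger in size. The lowest were Rpl (−0.45), Zscan (−0.43), Rps (−0.41), Cox (−0.41), Snhg (−0.39) and Kif (−0.36). Between the TKO+Dnmt3a2 replicates Snhg (0.54) and Rps (0.43) differed by more. The Rps stem also takes in genes of other kinds, such as kinases.

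Transcripts that were nearly absent in 1 line were counted over the whole table. Of 8382 genes under 0.1 RPKM in WT, 71 (0.847%) stood at 1 RPKM or more in TKO, and of 7742 genes under 0.1 RPKM in TKO, 34 (0.439%) did so in WT. Names of small RNAs, whose short transcripts reach 1 RPKM with few reads, made up 15 of the 71 and 25 of the 34. Between replicates 13 to 29 genes passed the same limits in each direction, of which 0 to 2 had other names. Of the 56 other genes seen in TKO, 16 lie on the X chromosome, as do 461 of the 13106 genes that entered. Xlr, Mage and Rhox genes already counted in the X-linked lists are among the 16. The X share of the genes under 0.1 RPKM in WT was not counted. Ubd, a ubiquitin-like modifier of the immune response (named after its values were seen), read 8.59 RPKM in TKO, was listed at 0 in WT and lay between 1.70 and 9.59 RPKM in the replicate libraries. Igll1, the partner of Vpreb1 and likewise named afterwards, rose to 6.72 RPKM in TKO and was listed at 0 in WT, with 0.139 to 0.886 RPKM in the replicate libraries.

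CpG content was read from the first 300 bases of the matched GENCODE M21 transcript, as the observed CpG count over that expected from the base composition, and classes were split at 0.35 and 0.65. Of genes with a low ratio 16.9% were past the spread and higher in TKO and 5.45% lower (1175 genes). The shares were 8.83% and 3.04% with an intermediate ratio (3161 genes) and 6.52% and 1.91% with a high ratio (8003 genes). The classes differ in level, with median RPKM of 3.45, 7.19 and 13.4, and in the share of genes that differ by 1 or more between the TKO+Dnmt3a1 replicates, at 5.11%, 1.71% and 0.837%. Among genes at 1 RPKM or more in both libraries and a mean of 1 to 5 RPKM, the shares higher were 9.24%, 5.32% and 9.29%. At 5 to 20 RPKM they were 7.21%, 5.1% and 5.06%, and at 20 RPKM or more 15.7% (19 of 121 genes), 3.99% and 2.68%. At 20 RPKM or more, 4.13%, 2.13% and 0.736% differed by 1 or more between the TKO+Dnmt3a2 replicates. With no filter on low values the order turned, with 4.41%, 7.23% and 7.54% past the spread in either direction. Of genes under 0.1 RPKM in WT, 0.626% of the low, 0.937% of the intermediate and 1.26% of the high class stood at 1 RPKM or more in TKO.

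Whole chromosomes stood apart. Chromosome 11 had a median difference of 0.53, chromosome 6 of 0.51 and chromosome 16 of 0.49. Chromosome 12 followed with 0.28, chromosome 3 with 0.22 and the X with 0.15, and the others lay between −0.06 and 0.07. Past the spread and higher in TKO were 15.7% of genes on chromosome 11, 15.1% on chromosome 6 and 15.4% on the X. On chromosome 16, 64 of 401 genes were past it and higher and 0 lower. Chromosome 11 also differed between the TKO+Dnmt3a1 replicates (0.36). With each chromosome's median removed 728 of the 13106 genes were past the spread and higher and 458 lower. Without chromosomes 3, 6, 11, 12 and 16 the counts were 655 and 319 of the 9916 genes left. Of the genes described, Sox2, Fdps and Pmvk lie on chromosome 3, Dppa3, Nanog, Asz1, Tmem40, Gdf3, Peg10, Nap1l5, Mthfd2, Gadd45a and Vax2os on chromosome 6, Sparc, Xbp1, Grb10, Calcoco2, Tex19.2, Hand1, Hoxb13, Notum, Irgm1 and Cobl on chromosome 11, Dnmt3a, Rian, Mirg, Id2, Gpx2, Rsad2, Twist1 and Gm2022 on chromosome 12, and Dppa2, Tbx1, Parp14, Igll1 and Vpreb1 on chromosome 16. The part of chromosome copy number in these differences was not tested.

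**Figure D4:**
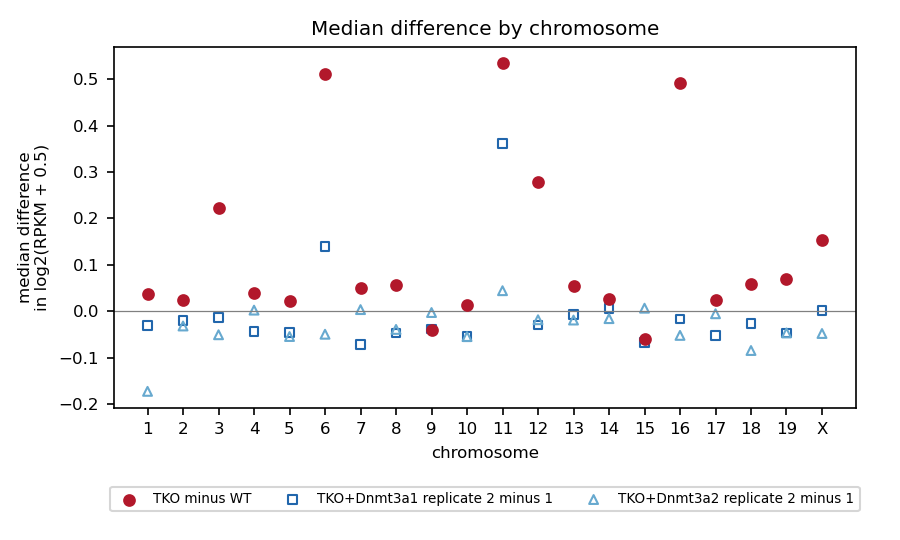
Median difference in log2(RPKM + 0.5) per chromosome for TKO minus WT (filled) and for replicate 2 minus 1 of both replicated lines (open). Chromosomes 6, 11 and 16 stand near 0.5 in TKO minus WT, and chromosome 11 stands at 0.36 between the TKO+Dnmt3a1 replicates.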

How the data were processed

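Libraries were made from polyA RNA (RNeasy, TruSeq RNA Library Prep Kit v2) in a kit that keeps no strand. Genes that overlap on opposite strands thus cannot be separated. Reads were handled with bcl2fastq 1.8.4 and STAR 2.4.0 on mm9, per the submitters' processing notes. The authors deposited RPKM for 24016 genes with 1 RefSeq accession each. Counting tool, gene lengths, strand setting and duplicate handling are not given in the sources used here. The table held 0 other per-sample columns.

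The deposited values were used as log2(RPKM + 0.5), unscaled, with a minimum of 1 RPKM in TKO or WT. RPKM are not counts, so limma 3.58.1 (lmFit, eBayes with trend, R 4.3.3) was used, with 9 group means over 11 libraries, 2 residual and 4.44 prior degrees of freedom. It assumes that lines without a replicate vary like the 2 replicated ones, and its p-values measure only the spread between those replicate libraries, which may be technical. The script was tested on simulated data. Depth was sought as the total at which 98.5% to 100% of low values of transcripts up to 400 bases were whole reads within 0.05.

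The 34 gene lists and the members named were chosen with earlier results of these data known. In each list up to 4 genes past the replicate spread with the largest differences were named or, where there were none, up to 2 with the highest mean RPKM, besides ranks 11 to 25 in each direction, the 6 highest and 6 lowest symbol families and the targeted genes. Others are marked as named after their values were seen, and a few that these rules name are not reported here. The RefSeq promoter table covered 77.6% of the genes that entered, under the 80% required, so that the planned promoter classes were void and CpG classes came from GENCODE M21 transcripts (94.1%), a choice made after seeing the data. Gene chromosomes are from RefSeq GRCm38.p6.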

Additional observations from a re-analysis of the deposited data

How the results depend on the processing

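Counts of genes past the replicate spread (1441, 1080 higher and 361 lower in TKO) depended most on the filter and the threshold. They were 860 of 11818 genes with 1 RPKM in both libraries (626 higher, 5.3%, and 234 lower, 1.98%). With a difference of 2 they were 216 (163 and 53) of the 13106 genes. Against the 99th percentile of replicate differences at the same level they were 685 (508 and 177). Quantile normalization gave 712 higher and 553 lower. Without chromosomes 3, 6, 11, 12 and 16, an alternative chosen after seeing the data, 655 of 9916 genes were higher and 319 lower. Chromosomes with a median beyond 0.2 numbered 5, but 3 with quantile normalization and 1 with no filter.

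The shares of low, intermediate and high CpG genes past the spread were 27.7%, 15.1% and 10.4% with a pseudocount of 0.1, and 15.9%, 8.07% and 6.2% with 1. They were 4.41%, 7.23% and 7.54% with no filter, and 12.4%, 7.15% and 6.6% with 1 RPKM in both. With 1 RPKM in any library the low class stood at 18.1%. The intermediate and high classes stood at 10.4% and 7.08% with quantile normalization and at 10.2% and 6.4% with chromosome medians removed, and the high class at 7.55% with median ratio scaling.

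The 93 limma calls (72 higher, 21 lower) became 49 (37 and 12) with 1 RPKM in any library and 401 (226 and 175, 19 of them shared) with no filter. Leaving out 1 replicate library gave 25 to 162 calls, 18 to 126 higher and 7 to 36 lower. A replicate block raised them to 736 (542 and 194), all 93 included. The genes tested numbered 14229 with 1 RPKM in any library, 24016 with no filter and 13106 in the other fits of this paragraph. No paired analysis was possible because TKO and WT have 1 library each. Replicates share only a number with other lines, and the block leaves 1 residual degree of freedom.

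Of 272 list medians under 8 alternatives, 208 moved by less than the replicate spread, 63 by more, and 1 reversed. The spread of a list was here the root mean square of its medians between the replicates of both pairs. The retroelement silencing list was the 1 that reversed, at −0.0276 with chromosome medians removed. Its main median of 0.17 had exceeded that spread, but was smaller in size than the −0.18 between the TKO+Dnmt3a2 replicates. The Nodal, FGF-ERK, DNA methylation and p53 lists, with medians inside their replicate spread, also changed sign under 1 or more scalings. Of 650 values of the named genes, 608 stayed on their side of the yardstick and 42 dropped below it. The cause of these shifts was not tested.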
